A study of Mus musculus with 2 samples.

Results

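The 10 genes described here are Atf4, a transcription factor of the integrated stress response, 6 of its classical targets (Ddit3, Trib3, Asns, Chac1, Sesn2 and Aldh18a1) and the 3 enzymes that make serine from a glycolytic intermediate (Phgdh, Psat1 and Psph). They were chosen by name, as every spot that is not a control and whose RefSeq accession belongs to 1 of these genes. All 10 genes were found, on 14 of the 27224 probes that could be named, and 10 of 10 were well above background on both arrays, as were 13479 of the 20654 named genes. RNA came from cells that had been taken from bone marrow of female C57BL/6 mice, grown for 2 days with macrophage colony-stimulating factor (M-CSF) and then given M-CSF and RANKL, the cytokine pair that turns them into osteoclasts, the large bone-resorbing cells with many nuclei. One group is wild type and the other Dnmt3a knockout, with 1 array each. The age of the mice, the knockout allele, any Cre driver and the number of mice behind each culture are not given in the sources used here.

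Atf4 protein is made when kinases that sense amino acid shortage, unfolded protein, haem shortage or double-stranded RNA phosphorylate the translation factor eIF2alpha, which slows general translation while favouring the Atf4 message. Atf4 then binds composite C/EBP-ATF elements, together with C/EBP and other bZIP partners, and switches on genes for amino acid synthesis, amino acid uptake and tRNA charging, as well as feedback and death genes such as Trib3, Ddit3 and Chac1. Because its protein is controlled largely by translation, the level of the Atf4 message need not follow the activity of the protein.

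Each value below is the scanner software's processed signal of a spot, in intensity units, with the software's own error. A difference is the log2 signal of the knockout array minus that of the wild type array after each array was divided by its 75th percentile, so it is relative to the bulk of the genes. Each genotype has a single array, so there are no replicates, no test across samples and no p-value, and the number of arrays limits the precision. The scanner error of a difference was 0.20 for a typical gene and repeated spots of a probe differed with a median SD of 0.07; neither covers variation between cultures or mice. Dnmt3a itself, whose single probe checks the label, gave 7042 in wild type and 1822 in the knockout. The position of that probe relative to the deletion is unknown. The share of spots well above background was 52.7% and 59.7%, and the median of the negative control spots was 6.06 and 4.24.

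The promoters of the members were searched for the core of the C/EBP-ATF element, TGATGNAAN, and for the cAMP response element, TGACGTCA, on either strand, in windows from 250 bases before to 50 bases after the start in the RefSeq promoter table of GRCm38.p6. All 10 members were in that table. The first motif was found in 3 of them (Asns, Chac1 and Trib3), in 4.50% of the 27025 genes of the table and in 2.95% of the 10797 of them that were measured. The second was found in 0 of the 10 members, in 2.03% of the genes of the table and in 3.40% of the measured ones. Psat1 has 2 windows in the table. The upstream bases of Psph, a gene on the minus strand, run from 129787254 to 129787503, while the gene itself ends at 129787443. Its window thus belongs to a start inside the gene, and less of the sequence beyond the gene was searched. The 250 bases before the start are shown for Asns and Chac1, which hold the first motif there and were both lower in the knockout, and for Aldh18a1, which had the lowest difference of the 10 and holds neither motif. Capitals mark the motif, which reads TGATGAAAC on the gene's own strand in Asns and GTTGCATCA, the reverse complement of TGATGCAAC, in Chac1.
Asns (chr6:7693210-7693459, minus strand): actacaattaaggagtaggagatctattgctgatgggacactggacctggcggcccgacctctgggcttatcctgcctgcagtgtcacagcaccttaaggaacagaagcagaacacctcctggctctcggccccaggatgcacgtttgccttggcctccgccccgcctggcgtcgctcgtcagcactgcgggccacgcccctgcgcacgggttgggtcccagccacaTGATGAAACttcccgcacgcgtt
Chac1 (chr2:119350992-119351241, plus strand): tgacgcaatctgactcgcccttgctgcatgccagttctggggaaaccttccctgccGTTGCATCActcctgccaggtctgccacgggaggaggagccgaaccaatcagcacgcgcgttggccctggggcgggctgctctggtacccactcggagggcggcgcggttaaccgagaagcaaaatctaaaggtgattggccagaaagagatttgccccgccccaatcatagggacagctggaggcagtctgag
Aldh18a1 (chr19:40588464-40588713, minus strand): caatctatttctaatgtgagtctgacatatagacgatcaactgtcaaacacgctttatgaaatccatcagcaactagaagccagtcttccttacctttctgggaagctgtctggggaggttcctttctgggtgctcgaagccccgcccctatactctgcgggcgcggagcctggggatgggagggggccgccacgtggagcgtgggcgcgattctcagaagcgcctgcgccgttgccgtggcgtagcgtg
The Asns motif lies from 23 to 15 bases before the start and the Chac1 motif from 194 to 186 bases before it. The match in Trib3, TTTACATCA, lies from 14 to 22 bases after the start. A match is a description of letters and not a bound site. Over the 318 measured genes whose window holds the first motif, the median difference between the arrays was 0.03 and 46.9% of them lay below 0. Over the 10479 measured genes of the table without it, the median was 0.01 and 48.2% lay below 0. Genes with and without the motif were thus both centred near 0, and Asns (-0.54) and Chac1 (-0.46) lay below that median while Trib3 (0.26) lay above it. With the motif 6.29% were at least 1.5-fold lower and 9.43% at least 1.5-fold higher, against 4.21% and 5.64% without it. Whether the spreads differ was not tested.

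By their brightest probes, the genes of amino acid synthesis were lower in the knockout, by 1.18-fold to 1.63-fold, and Atf4 was lower by 1.20-fold. The stress effectors did not all share this direction: Chac1 was 1.37-fold lower, while Ddit3, Sesn2 and Trib3 were 1.08-fold, 1.18-fold and 1.20-fold higher. The difference of Ddit3 lay within its scanner error. When the arrays are scaled to their spike-in probes, Ddit3, Sesn2 and Trib3 turn negative (-0.42, -0.29 and -0.26). The median of all measured genes then lies at -0.52. Of the 10 members 7 lay below 0, where 48.1% of all measured genes did, and 3 lay above it, where 51.9% did, and the members' median was -0.28 against 0.01 for all measured genes. 1 member, Aldh18a1, was at least 1.5-fold lower, where 4.69% of all measured genes were, and 0 were at least 1.5-fold higher, where 5.82% were. These shares of all genes move with the scaling, to 5.94% and 4.76% after quantile normalization and to 39.9% and 0.482% with spike-in scaling. No member reached 2-fold, which 0.727% of all measured genes did downward and 0.824% upward.

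**Figure D1:**
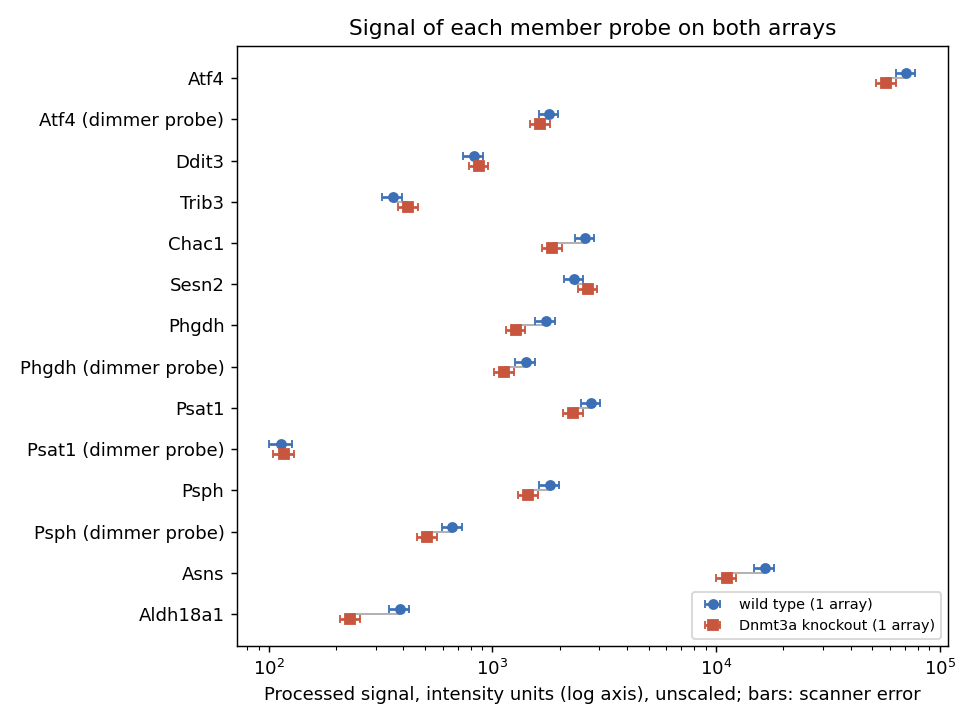
Processed signal (x axis, intensity units before scaling, log axis) of the 14 member probes in wild type (circles) and in the Dnmt3a knockout (squares), with the scanner error as bars; genes with 2 probes have a row for each. The Asns and Aldh18a1 pairs stand apart, at 16499 against 11134 and 385 against 231. The error bars overlap for Ddit3, Sesn2, Trib3, the brighter and the dimmer Psat1 probe and the dimmer Atf4 probe.

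Atf4 was read by 2 probes. The brighter gave 70794 (scanner error 7079) in wild type and 57717 (5772) in the knockout, a log2 difference of -0.26 (error 0.20). The dimmer gave 1788 and 1638, a difference of -0.10, within the scanner error. Both probes were thus lower in the knockout, the gap of 0.17 between them was smaller than the scanner error of the brighter probe's difference, and 17.5% of all measured genes had a lower difference than the brighter probe.

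The serine pathway runs from Phgdh, which oxidises 3-phosphoglycerate and commits it to serine, through the transaminase Psat1 to the phosphatase Psph. The brighter Phgdh probe gave 1727 (error 173) in wild type and 1274 (127) in the knockout, a log2 difference of -0.41 (error 0.20). Its other probe gave 1408 and 1131, a difference of -0.29. Phgdh was therefore lower by both of its probes, and its brighter probe was past 2 scanner errors.

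Psat1 gave 2762 (error 276) in wild type and 2299 (230) in the knockout with its brighter probe, a difference of -0.23 (error 0.20). Its dimmer probe, at 114 (13.3) and 117 (12.6), gave 0.07 (error 0.23), so the direction of Psat1 differs between its probes. Psph gave 1802 (180) and 1446 (145), a difference of -0.29 (error 0.20), and its dimmer probe gave 662 and 512, a difference of -0.34. Of the 6 probes of the serine pathway 5 lay below 0, and the median of the 3 genes by their brighter probes was -0.29.

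Asns makes asparagine from aspartate and glutamine and is a well-known Atf4 target in amino acid shortage. Its single probe gave 16499 (error 1650) in wild type and 11134 (1113) in the knockout. The difference of -0.54 (error 0.20), 1.45-fold lower, was below those of all but 5.74% of the measured genes. Aldh18a1 makes the first committed intermediate of proline synthesis from glutamate. It gave 385 (39.0) and 231 (23.6), a difference of -0.70 (error 0.21), and 2.65% of the measured genes had a lower one. After normexp background correction the difference of Aldh18a1 was -0.44, short of 1.5-fold. The median of the 5 genes of amino acid synthesis (Phgdh, Psat1, Psph, Asns and Aldh18a1) was -0.41. All 5 lay below 0, where 48.1% of all measured genes did.

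Among the stress effectors, Chac1 encodes an enzyme that degrades glutathione. It was lower in the knockout, with 2598 (error 260) in wild type and 1856 (186) in the knockout, a difference of -0.46 (error 0.20). Sesn2, a stress-induced inhibitor of mTORC1 that binds leucine, went the other way, with 2311 (231) and 2676 (268) and a difference of 0.24 (error 0.20). Trib3, a pseudokinase that feeds back on Atf4, gave 358 (36.4) and 421 (42.3), a difference of 0.26 (error 0.21).

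Ddit3, which encodes the factor CHOP, gave 824 (error 82.7) in wild type and 871 (87.2) in the knockout, a difference of 0.11 that lay within its scanner error of 0.20. Sesn2 and Trib3 were past 1 scanner error but not past 2, and 78.6% and 80.4% of the measured genes had a lower difference. Scaling to the spike-in probes, which lowers every difference by 0.53, put Ddit3 at -0.42, Sesn2 at -0.29 and Trib3 at -0.26, and it moved the median of all measured genes to -0.52, with 92.6% of them below 0. The median of the 4 stress effectors was 0.18.

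**Figure D2:**
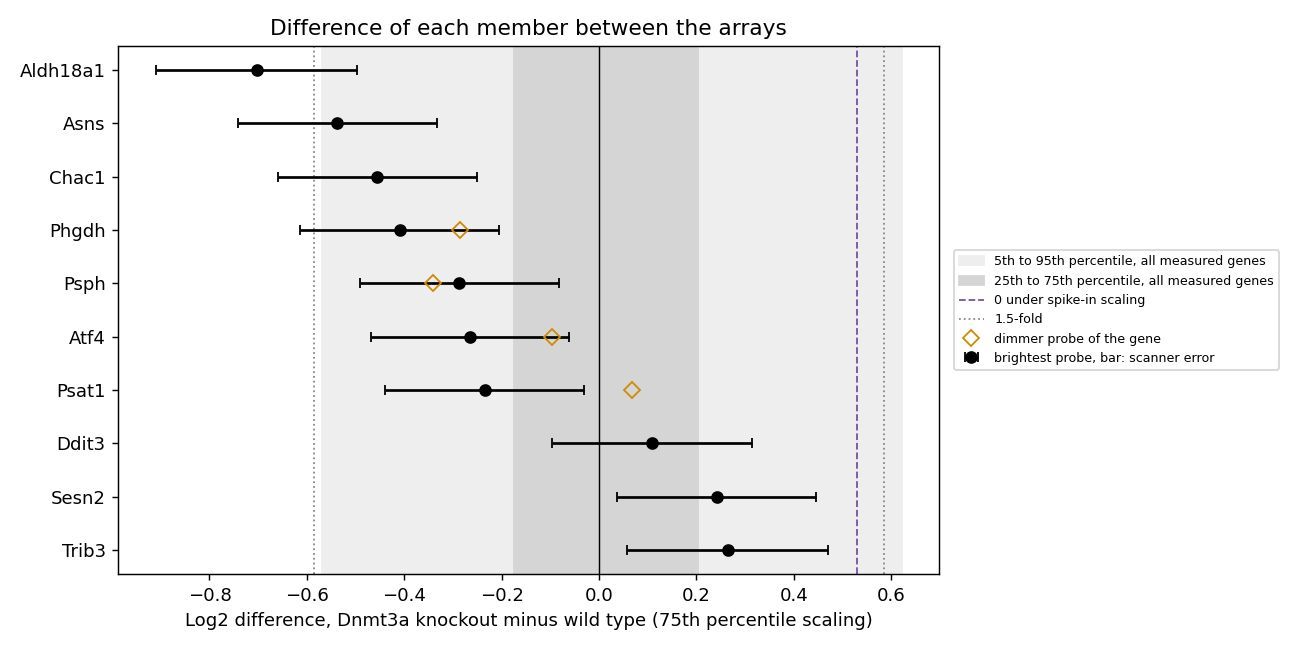
Log2 difference (x axis, knockout minus wild type, 75th percentile scaling) of each member by its brightest probe with the scanner error as a bar, and by its dimmer probe where there is one (diamonds); shaded bands give the middle of all 13479 measured genes, dotted lines 1.5-fold and the dashed line the zero under spike-in scaling. Aldh18a1 at -0.70 lies beyond the 5th percentile of all genes (-0.57), and Trib3 at 0.26 lies inside the 95th (0.62).

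Ordered by difference, the members ran from Aldh18a1 through Asns, Chac1, Phgdh, Psph, Atf4, Psat1, Ddit3 and Sesn2 to Trib3, a span of 0.97 with a scanner error of 0.29. Of the 9 gaps between neighbours in this order, the gap of 0.34 between Psat1 and Ddit3 was larger than its scanner error of 0.29, and the other 8, from 0.02 to 0.17, were smaller. The order was made from these same values, so that gap does not show a division into groups. Psat1 stood on the low side of that gap by its brighter probe alone: its dimmer probe, at 0.07, lay near the 0.11 of Ddit3. Past 2 scanner errors were 4 members, Aldh18a1, Asns, Chac1 and Phgdh, all lower in the knockout, where 8.94% of all measured genes were lower by that much and 10.7% higher.

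**Figure D3:**
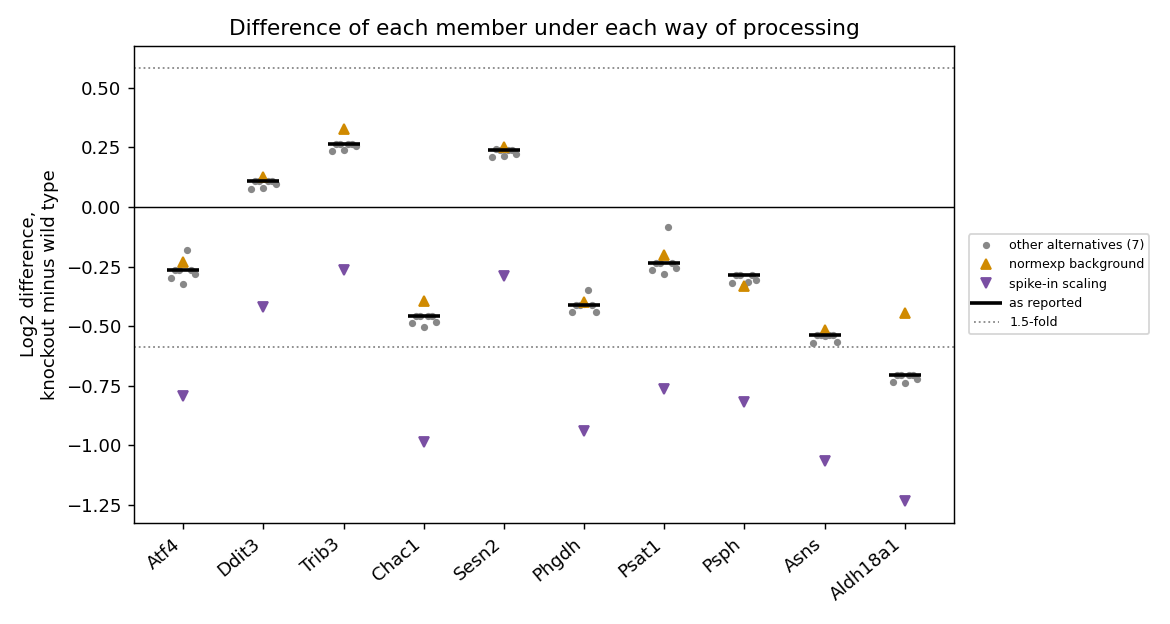
Log2 difference (y axis, knockout minus wild type) of each member as reported (bars) and under 9 other ways of processing (symbols), with dotted lines at 1.5-fold. Spike-in scaling moves every member down by 0.53, so that all 10 lie below 0, and normexp background correction moves Aldh18a1 from -0.70 to -0.44.

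Upstream of Atf4, 11 of 11 listed genes of eIF2alpha phosphorylation and its control were measured, with a median of -0.06. Below 0 were 7 of them, and 48.1% of all measured genes. The highest was Eif2ak2 (PKR, the kinase that senses double-stranded RNA, itself induced by interferon), which gave 1468 in wild type and 2156 in the knockout, a difference of 0.58 (error 0.20). Eif2ak1, the haem-regulated kinase, was at 0.15. Eif2ak3 (PERK, the kinase of the endoplasmic reticulum) was lowest at -0.30, followed by Dele1, which relays mitochondrial stress to Eif2ak1, at -0.25. Eif2ak4 (GCN2), the kinase that senses uncharged tRNA, was at -0.05, and the phosphatase subunit Ppp1r15a, an Atf4 target of its own, at -0.17. None of the 11 was past 1.5-fold in either direction.

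The bZIP partners and related stress factors had a median difference of 0.35. Of 12 genes 8 were above 0, where 51.9% of all measured genes were. In each direction 1 was past 1.5-fold, as were 4.69% of all measured genes downward and 5.82% upward. Batf3, a factor of dendritic cells, was highest at 0.64 and Cebpd next at 0.58, and Atf3 (0.51), Cebpb (0.52), Cebpa (0.51), Cebpg (0.42) and Atf5 (0.23) were also positive. At the low end were Fosl1 (-0.59) and Jdp2 (-0.48), AP-1 factors, the latter with a known role in osteoclasts. With spike-in scaling the list's median was -0.18 and that of all measured genes -0.52.

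Of the amino acid transporters induced by Atf4, 8 of 9 were measured and 6 lay below 0, where 48.1% of all measured genes did, with a median of -0.40. At least 1.5-fold lower were 2 of the 8, where 4.69% of all measured genes were, and 1 was at least 1.5-fold higher, where 5.82% were. The glutamine transporter Slc1a5 was lowest, with 13230 in wild type and 7042 in the knockout, a difference of -0.88 (error 0.20; its other probe -0.87). Slc7a5, which imports leucine and other large neutral amino acids, was at -0.72 (other probe -0.31), and its partner chain Slc3a2 at 0.12. Slc1a4, which carries serine and alanine, was also above 0 and the highest of the 8: its single probe gave 18379 and 36465, a difference of 1.02 (error 0.20), 2.03-fold higher. The spot of Slc1a4 lies in array row 75, and in rows 1 to 128, 2.18% of the measured genes were past 2-fold, against 1.23% from row 129 on; less the median of its neighbouring spots, its difference was 0.98. Slc7a11, the cystine transporter, was dim, with signals of 28.1 and 22.6, and well above background on the knockout array alone, so no fold is given.

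Of 13 genes listed as Atf4 targets in tRNA charging and export, 12 lay below 0, against 48.1% of all measured genes, with a median of -0.28. The tRNA export receptor Xpot (-0.45, other probe -0.72) and the methionyl-tRNA synthetase Mars1 (-0.44) were lowest. Near 0 were Nars (-0.00), Wars (-0.01, other probe -0.28) and the dim Yars (0.02, error 0.33). Nars and Wars are among the 12 counted below 0, well within their scanner error of 0.20. No gene of this list was past 1.5-fold. Of 8 other cytosolic synthetases 7 lay below 0 as well, with a median of -0.11, from Dars (-0.59) and Farsb (-0.38) to Rars (-0.00) and Qars (0.09). The 7 include Rars and Kars (-0.01), which were near 0. Whether the lists differ was not tested.

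Enzymes that use serine and glycine and the folate cycle had a median of -0.12 over 18 measured of 21 listed genes. Below 0 were 11 of the 18, and 48.1% of all measured genes. Aldh1l2, the mitochondrial formyltetrahydrofolate dehydrogenase, was lowest, at 131 in wild type and 73.6 in the knockout (-0.80, error 0.22). Mthfd2, the mitochondrial folate enzyme and a known Atf4 target, gave 2806 and 1876 (-0.55, error 0.20). Shmt2, which splits serine in mitochondria, was at -0.30 and Mthfd1l at -0.29, and the cytosolic Shmt1 was at -0.08. Low values were not confined to mitochondrial enzymes: the cytosolic Mthfd1 and Aldh1l1 were at -0.36 and -0.30. The mitochondrial Gldc was at 0.08. At the high end were the nucleotide enzyme Tyms (0.16) and the formyltransferase Mtfmt (0.15).

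The other stress targets of Atf4 went both ways: of 18 genes 15 were measured, 7 below and 8 above 0, with a median of 0.02. Of all measured genes 48.1% lay below 0 and 51.9% above it. Vegfa was lowest at -0.72 (other probe -0.48) and Ddit4, an inhibitor of mTORC1, next at -0.38. Cdkn1a, the cell cycle inhibitor p21, was highest at 0.55 (other probe 0.69), and the stress cytokine Gdf15 was at 0.36. Fgf21 and Stc2 were not well above background on either array, and Cth was well above it on the knockout array alone.

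**Figure D4:**
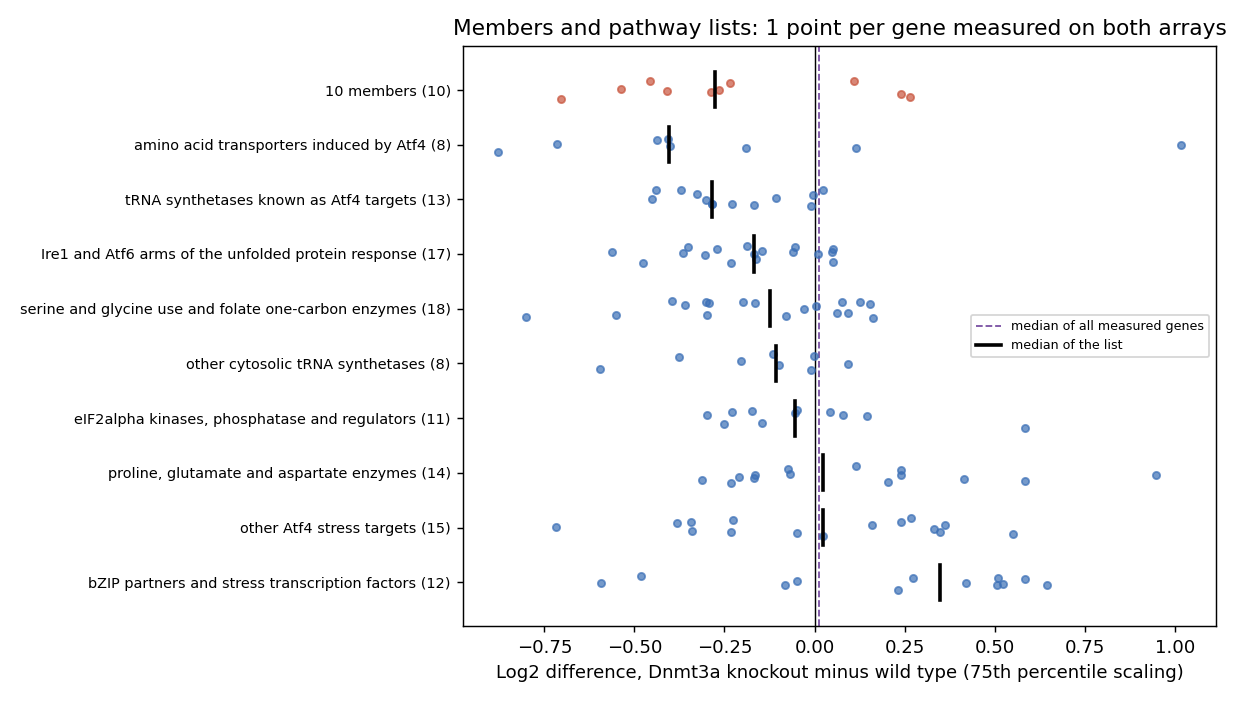
Log2 difference (x axis, knockout minus wild type, 75th percentile scaling) of the 10 members and of the genes of 9 pathway lists that were measured on both arrays, 1 point per gene, with the number in brackets, the median of each list as a black bar and the median of all measured genes (0.01) as a dashed line. The transporters and tRNA synthetases have their medians at -0.40 and -0.28, near that of the members, and the bZIP factors theirs at 0.35.

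Markers of cell types differed between the arrays as well. Of all measured genes, 48.1% lay below 0 and 51.9% above it, 4.69% were at least 1.5-fold lower and 5.82% at least 1.5-fold higher. Osteoclast markers were bright, with Acp5 at 451856 and 442434 and Ctsk at 413300 and 356772, and 12 of 12 lay below 0 with a median of -0.57, from Tnfrsf11a (-1.20) to Acp5 (-0.00). At least 1.5-fold lower were 5 of them, Tnfrsf11a, Calcr (-0.84), Oscar (-0.72), Itgb3 (-0.64) and Atp6v0d2 (-0.62). Their summed level, in multiples of each array's 75th percentile, was 2014 in wild type and 1751 in the knockout. Such a sum follows the brightest probes of a list, here Acp5 and Ctsk, which made up most of it. Markers of stromal cells and osteoblasts lay below 0 in 11 of 13 measured genes with a median of -0.70, and their summed level was 157 and 103: Col1a1 gave 19790 and 11744, while Runx2 and Lum were not well above background on either array. Macrophage markers lay above 0 in 11 of 11 genes, with a median of 0.69 and a summed level of 780 and 973, and 9 of them were at least 1.5-fold higher, up to Vsig4 (1.32) and Marco (1.47). Csf1r, at 317392 in wild type and 332857 in the knockout (0.10), made up most of the macrophage sum. Neutrophil markers lay above 0 in 10 of 10 genes, with a median of 0.47 and a summed level of 392 and 482, and the 2 past 1.5-fold were Retnlg (0.70) and Mmp8 (1.08). Markers of lymphocytes and erythroid cells had lower sums, 9.33 and 10.4 for B cells, 23.2 and 28.5 for T and NK cells and 1.32 and 1.44 for erythroid cells. Of the measured B cell markers 5 of 6 lay above 0, and Ebf1, at 239 and 143 (-0.72), was at least 1.5-fold lower. All 3 measured T and NK markers lay above 0. Of the 3 measured erythroid markers 2 lay below 0, with a median of -0.10, and Epor lay above it at 0.33. Cd4 gave 8124 and 10275, Nkg7 3474 and 3793, Cd79b 3416 and 3808 and Cd3e 1932 and 2141, while Cd3d, Cd3g, Cd8a, Ncr1, Alas2 and Klf1 were not well above background on either array. The part of these cell types in the differences of the 10 members was not tested, and in RNA from whole cultures fewer cells of a type and less RNA per cell cannot be told apart.

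The place of the spots on the array was checked as well. Of the 14 member probes, 2 lie in rows 1 to 128, the brighter probe of Phgdh and the dimmer probe of Psat1. The median difference of the measured spots within 15 rows and 15 columns of a member probe ran from -0.00 to 0.06. After it was subtracted, the members' median was -0.33 and each kept its sign, with Aldh18a1 at -0.74, Phgdh at -0.41 and Ddit3, the nearest to 0, at 0.08.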

How the data were processed

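RNA of 1 wild type and 1 Dnmt3a knockout osteoclast culture was labelled with Cy3 and hybridised to 1-colour Agilent mouse arrays. Per the file headers, the deposited scanner output gives spot intensity, background-subtracted and detrended by Agilent Feature Extraction 10.10.1.1 with a grid on mm9; the submitters' processing notes name version 9.1. These deposited values are not scaled between the arrays. Set against it by spot number, the authors' value table is the same intensity on a linear scale times 1.55 for wild type and 1.54 for the knockout (medians), uncentred, with column medians of 59.6 and 66.5; the choice of factor is not known.

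Here, log2 of the processed signal was taken minus that of each array's 75th percentile over 59305 spots that are not controls, spots marked uneven or outlying (157 and 172) were left out, and the brightest probe stood for its gene. No spot was saturated. Unversioned accessions were matched to a RefSeq table of GRCm38.p6, used for names, which named 48.9% of 55649 probes. Nupr1 sits on 2 of the lists. A gene was measured when well above background on both arrays. The members, their split into amino acid synthesis and stress effectors, and all lists were chosen with earlier results of these data known. Text names all members, the 2 highest and 2 lowest genes of each pathway list and those past 1.5-fold, and a few defining genes of the marker lists; other list genes and the markers named were chosen after their values were seen. Python 3.11.15, pandas 2.3.3 and, for normexp with an offset of 50, limma 3.58.1 in R 4.3.3 were used. Normexp was planned on mean spot signals and run on the medians that the files hold. The calculation was tested on simulated data. Alternatives covered background, scaling (spike-in probes, quantile, detected probes), the value table, array position, probe choice, marked spots and dim probes.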

Additional observations from a re-analysis of the deposited data

How the results depend on the processing

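In all 9 alternatives Atf4, Asns, Chac1, Psat1, Phgdh, Psph and Aldh18a1 stayed below 0; Ddit3, Sesn2 and Trib3 stayed above 0 in 8 and were below it with spike-in scaling. Spike-in scaling put the members' median at -0.80 and all 10 members below 0, as it did 92.6% of all measured genes. It put 7 members at least 1.5-fold lower, where 39.9% of all measured genes were. The 8 spike-in probes ranged from 0.30 to 0.72, so the size of that shift depends on the probe. After normexp background correction 0 members were at least 1.5-fold lower, where 2.16% of all measured genes were. In the other 7 alternatives the count stayed at 1, where 4.46% to 5.94% of all measured genes were. The members' median there ran from -0.33 for local medians to -0.25 for the median over probes. Without the filter on dim probes no member changed, since each was well above background. Keeping the marked spots changed no member either. The value table is the same signal times a factor per array, so it left the members' differences practically unchanged. The signs of the members under these settings were thus fixed in advance. Spike-in scaling and scaling to detected probes each shift every gene by the same amount. Of the list medians, that of the other stress targets crossed 0 apart from spike-in scaling, at -0.01, and that of the proline list ran from -0.07 to 0.09. No paired analysis was possible because each genotype has 1 array, and no array could be left out. By its brightest probe each member was at least 13.1 times the lowest signal well above background on its array, yet the background correction moved the dim Aldh18a1 from -0.70 to -0.44. The sign of Psat1 differs between its probes (-0.23 and 0.07), and the lack of replicates limits every value.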

Other observations

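Proline, glutamate, aspartate and arginine enzymes, the wider pathway of Aldh18a1, went both ways: of 16 listed genes 14 were measured, 7 below and 7 above 0, with a median of 0.02. Of all measured genes 48.1% lay below 0 and 51.9% above it. Arg2, the mitochondrial arginase, was highest, with 135 in wild type and 255 in the knockout (0.95, error 0.22), and Ass1, which makes argininosuccinate, was at 0.58 (other probe 0.53). Aldh4a1 (-0.31) and Got1 (-0.23) were lowest. Aldh18a1, at -0.70, lay below every measured gene of this list.

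The Ire1 and Atf6 arms of the unfolded protein response, which run beside the Atf4 arm, had a median of -0.17 over 17 of 17 measured genes. Below 0 were 13 of the 17, and 48.1% of all measured genes. Edem1 (-0.56) and Pdia4 (-0.48), which serve degradation and folding in the endoplasmic reticulum, were lowest, the chaperone Hspa5 was at -0.23, and Xbp1, Ern1 and Syvn1 were each at 0.05. None of the 17 was past 1.5-fold.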
